A study of Homo sapiens with 8 samples.

Results

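The nuclear-encoded subunits of the respiratory chain were read in poly-A RNA of HepG2 cells, a human hepatocellular carcinoma line, as genes whose current symbol starts with NDUFA, NDUFB, NDUFC, NDUFS or NDUFV, SDHA to SDHD, UQCR, COX4 to COX8 or ATP5. Assembly factors (NDUFAF) and pseudogenes were left out. The rule found 88 of the 49733 gene IDs, of which 39 belong by name to complex I, 4 to complex II, 9 to complex III, 17 to complex IV and 19 to complex V. The filter on low counts kept 81 of the 88 members among 14746 genes tested. NDUFA4 carries a complex I name but is known as a subunit of complex IV, and ATP5IF1 is an inhibitor of complex V rather than a subunit. CYC1 has a symbol outside the rule and is not counted.

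The respiratory chain moves electrons from NADH (complex I) and succinate (complex II) over coenzyme Q to complex III, cytochrome c and complex IV, where oxygen is reduced. Complexes I, III and IV pump protons across the inner mitochondrial membrane, and complex V uses the gradient to make ATP. Complexes I, III, IV and V mix subunits from nuclear genes with subunits from mitochondrial DNA, whereas complex II is wholly nuclear-encoded. Many subunits of complex IV have tissue forms, with separate genes for heart and skeletal muscle, lung or testis.

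The 4 groups were HepG2 cultures with 2 µM benzo[a]pyrene (BaP) for 12 h, BaP for 24 h, the vehicle 0.5% DMSO for 12 h and DMSO for 24 h, each with 2 libraries from independent experiments, and all cultures got fresh medium at 80% confluence. BaP, a combustion product, is a ligand of the aryl hydrocarbon receptor (AHR), and cells turn it into metabolites that form DNA adducts. HepG2 is a single tumour line, so the data hold no normal hepatocytes. Estimated counts per library ranged from 2592272 (BaP 24 h replicate 1) to 16533490 (BaP 24 h replicate 2), and 3 counts, the limit taken for a gene with none, equal 1.13 CPM (counts scaled to library size) in the shallowest library and 0.201 in the deepest. CYP1A1, the AHR target used to check the treatment, had a log2 fold change of 7.66 ± 0.24 (SE) at 12 h and 7.74 ± 0.28 at 24 h (7.88 without BaP 24 h replicate 2). Hepatocyte genes were high in every library (ALB 1969 to 3098 CPM), whereas the fibroblast gene DCN and the T cell gene CD3E had no count. Other fibroblast, stellate and leukocyte markers were counted in every library. These were COL1A1 (5.15 to 42.4 CPM), PDGFRB (8.95 to 29.1), CD68 (36.2 to 56.1) and CD14 (1.47 to 7.13). COL1A2, COL3A1 and PTPRC stayed at or under 0.375 CPM. With 2 libraries a group, p-values measure the spread between these pairs of libraries, pooled over all 4 groups. The p-values of a comparison therefore also depend on the spread in groups outside it. Fewer cells of a kind cannot be told apart from less RNA per cell.

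One library stood apart in these genes, BaP 24 h replicate 2. The deviation of each gene's log2 CPM from its mean over the 8 libraries had a median over the 81 members of 0.00 in replicate 1 and 0.57 in replicate 2 of BaP 24 h, against -0.00 and 0.05 in DMSO 24 h. At 12 h it was -0.05 and -0.19 with BaP, against -0.14 and -0.25 with DMSO. Of the 81 members, 76 had their highest CPM of all 8 libraries in BaP 24 h replicate 2, and the exceptions were SDHA, SDHD, NDUFA5, NDUFA4L2 and COX6B2. The same library was high in cytosolic ribosomal protein genes, with a median deviation of 0.56 over 81 genes, and in mitochondrial ribosomal protein genes, with 0.42 over 74. Both lists were near 0 in replicate 1, at -0.05 and 0.01. In BaP 24 h replicate 2, genes whose most counted transcript was under 800 bases long were 0.36 above DMSO 24 h on the log2 scale (median of 893 genes, 0.64 for 35 members). Genes over 5000 bases were at -0.15 (2233 genes), while the 4 members of that class were at 0.41. From 800 to 1500 bases 18 members were at 0.46 (all genes 0.28), and from 1500 to 3000 bases 12 members were at 0.31 (all genes 0.05). From 3000 to 5000 bases 3 members were at 0.57 (all genes -0.08). In replicate 1 all genes under 800 and over 5000 bases were at -0.04 and -0.05. This length was known for 88.9% of the members tested and 83.2% of all genes tested. Calls, named genes and the medians of gene lists in the BaP comparison at 24 h are given with and without this library. The medians by promoter motif are given only with it. The part of transcript length and of depth in this library was not tested beyond the corrected fits given with the results.

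**Figure D1:**
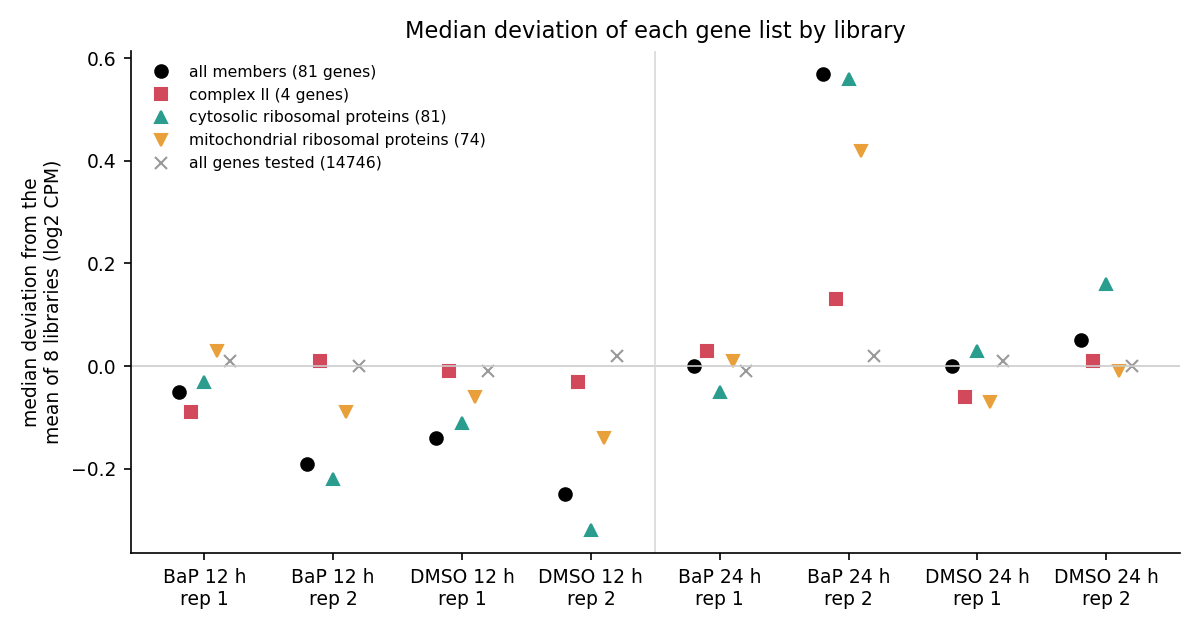
Median deviation from the mean of 8 libraries (log2 CPM, y axis) for each library (x axis), for all 81 members, complex II and the ribosomal protein lists. The members and the cytosolic ribosomal proteins sit at 0.57 and 0.56 in BaP 24 h replicate 2, while complex II sits at 0.13 there.

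Levels were compared between genes only per length, with the authors' length-corrected RSEM fractions expressed as TPM, the usual scale for transcript shares. The 81 tested members had a median of 133 TPM, and 51 members exceeded 100. The highest were COX4I1 at 562 ± 104 and COX6A1 at 534 ± 87.8 TPM (mean ± SD over the 8 libraries of all groups), both subunits of complex IV. In complex V the highest were ATP5MC3, a subunit of the proton-driven ring, at 472 ± 65.7 and ATP5MF, a membrane subunit, at 456 ± 76.3 TPM. In complex I they were NDUFC2 at 475 ± 55.8 and NDUFS5 at 332 ± 62.7 TPM, both accessory subunits. In complex III UQCR10, a small subunit, stood at 444 ± 127 and UQCRH, the hinge protein, at 303 ± 51.1 TPM.

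Complex II was low beside these. Its flavoprotein SDHA stood at 97.2 ± 14.3 TPM, its membrane anchor SDHC at 95.2 ± 19.3, its iron-sulfur subunit SDHB at 67.4 ± 6.95 and its second anchor SDHD at 20.6 ± 2.01. SDHA and SDHC lay within each other's spread, while SDHB and SDHD were each below the next gene by more than the SD. The lowest tested members of the other complexes were NDUFA4L2 at 0.723 ± 0.416, UQCRB at 18.6 ± 3.31, COX6B2 at 1.12 ± 0.235 and ATP5F1E at 89.3 ± 14.9 TPM. RSEM gave most reads of UQCRB and ATP5F1E to long annotated transcripts, of 5575 and 3665 bases, so their levels per length depend on that choice.

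Of the members' summed CPM, complex I held 31.0% to 33.1% over the 8 libraries, complex V 31.8% to 34.7% and complex II 2.93% to 4.32%. Complex I held 31.8% and 32.6% in BaP 24 h, against 31.0% and 31.6% in DMSO 24 h. Complex V held 32.7% and 31.8% in BaP 24 h, against 33.8% and 33.4% in DMSO 24 h. Complex II held 3.75% and 2.93% in BaP 24 h, against 3.73% and 3.65% in DMSO 24 h, so the library with the highest sum had the lowest share for complex II. At 12 h complex II held 3.72% and 4.27% with BaP, against 4.32% and 4.3% with DMSO.

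**Figure D2:**
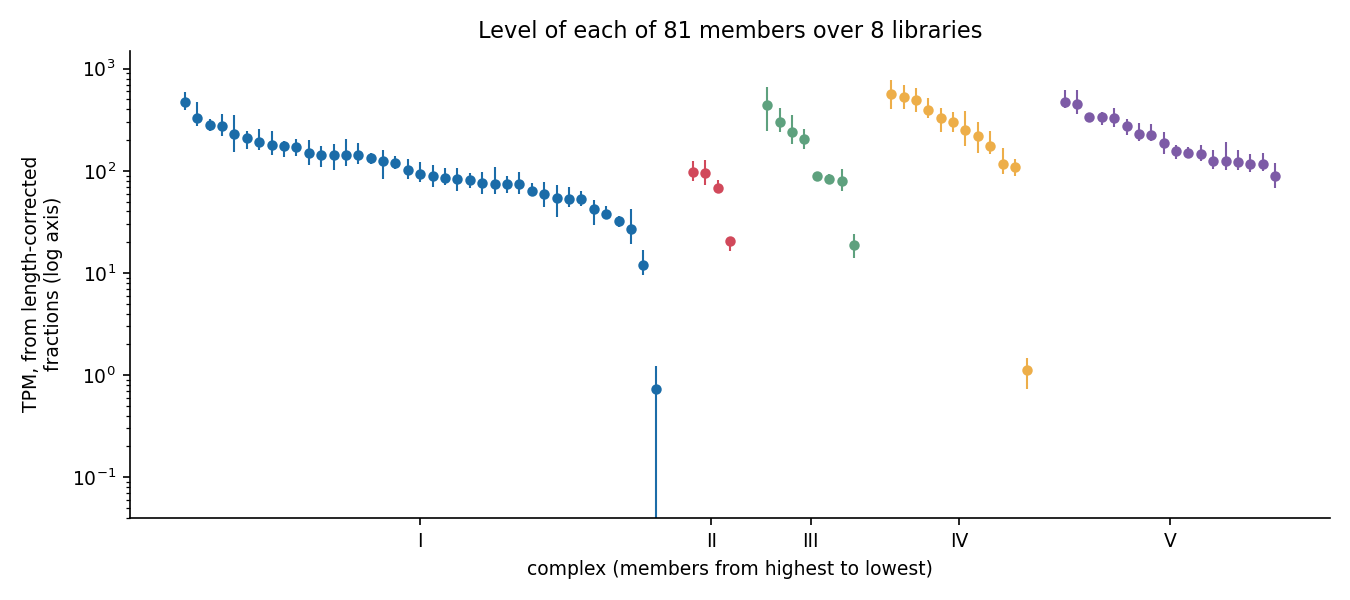
TPM (log axis) of each of the 81 tested members, ordered within each complex, with the mean of 8 libraries as a point and the range as a line. By their means, complex IV reaches 562 with COX4I1 and complex II stays at or under 97.2, while single libraries of SDHC reach 128. The line of NDUFA4L2 runs to the foot of the plot because this gene had no count in 1 library.

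The common forms of the tissue pairs were high and the muscle, lung and testis forms were at or near 0. COX4I1 stood at 562 TPM, against 0.0319 for its lung and hypoxia form COX4I2, which had 2 counts in all libraries. COX6A1 (534) stood beside the muscle form COX6A2, which had no count in any library. COX7A2 (253) stood beside the muscle form COX7A1 (0.112, 6 counts). COX6B1 (394), COX8A (493) and COX7B (118) stood beside testis forms at 1.12 (COX6B2), no count (COX8C) and no count (COX7B2). NDUFA4 (73.9) stood above its hypoxia-induced relative NDUFA4L2 (0.723). The 3 genes for the ring subunit of complex V, which encode the same mature protein, were all expressed, with ATP5MC3 at 472, ATP5MC2 at 337 and ATP5MC1 at 276 TPM. UQCRHL also had no count, and with ATP5MGL (14.6 counts) these were the members left untested: UQCRHL, COX4I2, COX6A2, COX7A1, COX7B2, COX8C and ATP5MGL.

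At 12 h no member passed in either direction. Of the 81 members, 0 passed an adjusted p of 0.05 in edgeR's quasi-likelihood test, while 8.25% of all genes tested did, and 1 member had an unadjusted p under 0.05. DESeq2's Wald test and edgeR's exact test also called 0. The median log2 fold change of the members was 0.06, beside 0.02 over all genes tested, with 54 of 81 above 0. The spread (SD) of this median over pairs of a BaP and a DMSO library was 0.1. Both BaP libraries lay above both DMSO libraries for 26 members (32.1%), beside 25.4% of all genes tested. They lay below for 5 members (6.17%). The share of all genes that lay below is not given, so this count has no background to be read against. BaP replicate 1 exceeded both DMSO libraries in 54 members (66.7%), beside 37.8% of all genes tested, and replicate 2 in 27 (33.3%), beside 36.4%.

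By complex, the medians at 12 h were 0.10 for the 39 members of complex I, -0.06 for the 4 of complex II, 0.05 for 8 of complex III, 0.15 for 12 of complex IV and 0.00 for 18 of complex V. The smallest p in complex I belonged to NDUFC1, an accessory subunit of the membrane arm. It had 42.9 and 34.6 CPM with BaP, against 25.9 and 30.7 CPM with DMSO. These libraries did not overlap, and the log2 fold change was 0.45 ± 0.16 (SE, adjusted p = 0.10). NDUFA5, an accessory subunit of the matrix arm, followed at 0.30 (adjusted p = 0.39). In complex II SDHC and SDHA were at -0.11 and -0.07, with adjusted p of 0.71 and 0.85. In complex III the small subunit UQCR11 was at 0.31 (adjusted p = 0.40) and UQCRB, the ubiquinone-binding subunit, at 0.23 (0.47). In complex IV COX5A was at 0.20 (0.49) and COX6A1 at 0.22 (0.53). In complex V ATP5PD, a subunit of the peripheral stalk, was at 0.20 (0.54) and ATP5F1E, the epsilon subunit of the central stalk, at 0.23 (0.56). The largest size was that of NDUFA4L2, at -1.06 (adjusted p = 0.58), and it rests on 0 and 6 counts with BaP, against 12 and 4 counts with DMSO.

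At 24 h 2 members passed, both higher with BaP, and 0 were lower. COX7A2, the form of complex IV subunit VIIa used outside muscle, had 99.4 and 150 CPM with BaP, against 76.1 and 81.6 CPM with DMSO. Both BaP libraries lay above both DMSO libraries, and the log2 fold change was 0.70 ± 0.15 (SE, adjusted p = 0.017). NDUFA12, an accessory subunit of the matrix arm of complex I, had 43.5 and 59.9 CPM with BaP, against 36.0 and 33.8 CPM with DMSO. Its libraries did not overlap either, and the log2 fold change was 0.61 ± 0.16 (adjusted p = 0.037). Of all genes tested, 5.3% passed at 24 h and 3.11% passed in the higher direction, which is about the members' own share. Without BaP 24 h replicate 2 neither gene passed, at 0.34 (adjusted p = 0.30) for COX7A2 and 0.31 (0.55) for NDUFA12. Neither passed when either DMSO 24 h library was left out. Scaled to the members, COX7A2 was at 0.39 and NDUFA12 at 0.30, and neither passed. That scaling sets the members' summed counts equal in all libraries. It removes any shift the members share, so it cannot show whether such a shift is real.

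**Figure D3:**
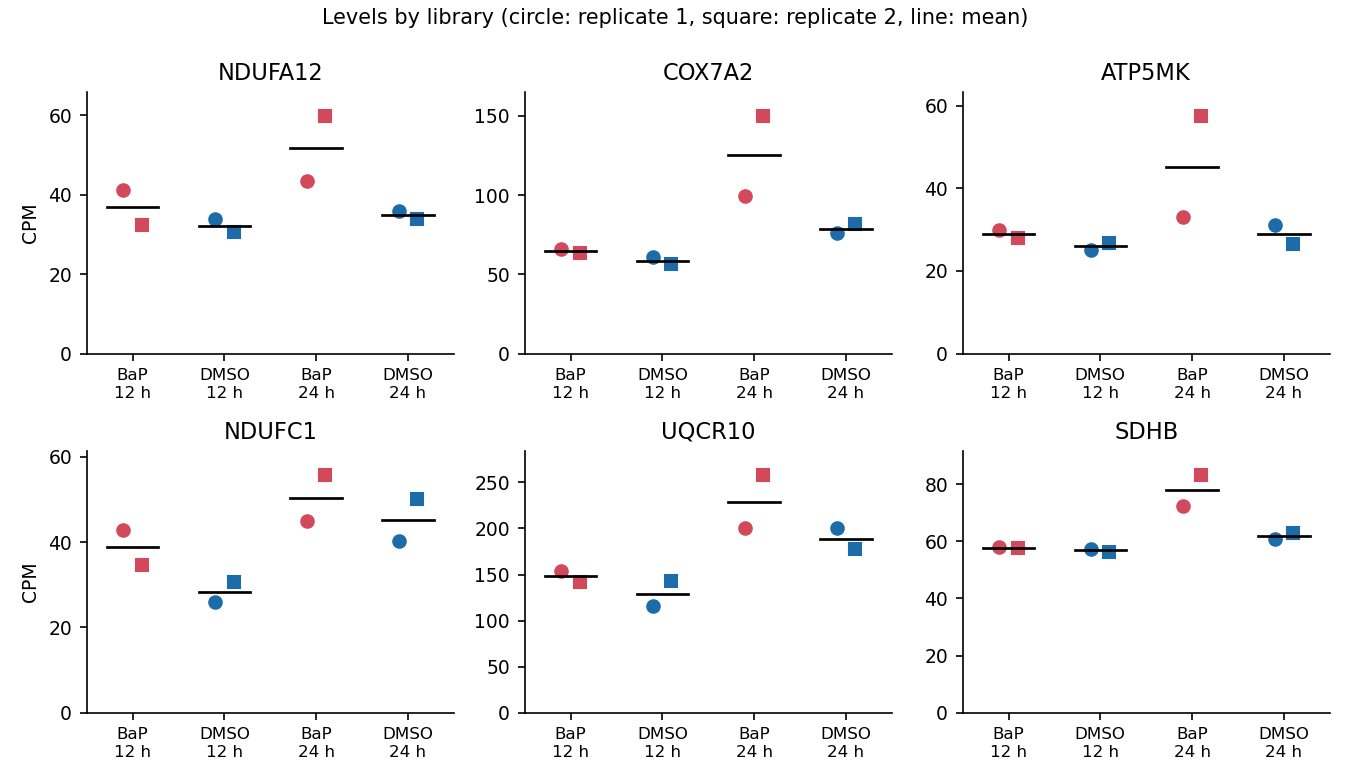
CPM (y axis, from 0) in each library of the 4 groups (x axis) for the members that passed a test and for ATP5MK and SDHB, with circles for replicate 1, squares for replicate 2 and a line for the mean. BaP 24 h replicate 2 is the highest library in all 6 panels, at 150 CPM for COX7A2 and 59.9 CPM for NDUFA12.

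The members as a list lay above 0 at 24 h, and this rested on BaP 24 h replicate 2. The median log2 fold change was 0.33, beside 0.01 over all genes tested, with 78 of 81 above 0 and 26 at an unadjusted p under 0.05. The spread (SD) of the median over library pairs was 0.34, as large as the median. Above both DMSO libraries lay 24 of 81 members in BaP replicate 1 (29.6%), beside 38.0% of all genes tested. In replicate 2 there were 80 (98.8%), beside 41.1%, and SDHD was the exception. Below both DMSO libraries lay 40 members in replicate 1 (49.4%), beside 41.5% of all genes tested, and 1 in replicate 2 (1.23%), beside 38.5%. Both BaP libraries lay above both DMSO libraries for 24 members (29.6%), beside 23.2% of all genes tested. They lay below for 0 members. The share of all genes that lay below is not given here either, so this count has no background.

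Fitted with replicate 1 left out, the median was 0.55 and 58 of 81 members were called higher, where 8.02% of all genes were. Fitted with replicate 2 left out, the median was -0.04 and 0 members were called, where 1.09% of all genes were called higher. In these fits the lone BaP library was assumed to vary like the other groups. With a correction for GC content and mRNA length in each library the median was 0.21. That fit used the length and GC content of each gene's longest annotated transcript, not of its most counted one. In that fit 6 of 81 members were called higher, where 742 of 13753 genes were. After thinning to equal depth the median was 0.29 and 1 of 79 members was called higher, where 227 of 11683 genes were.

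**Figure D4:**
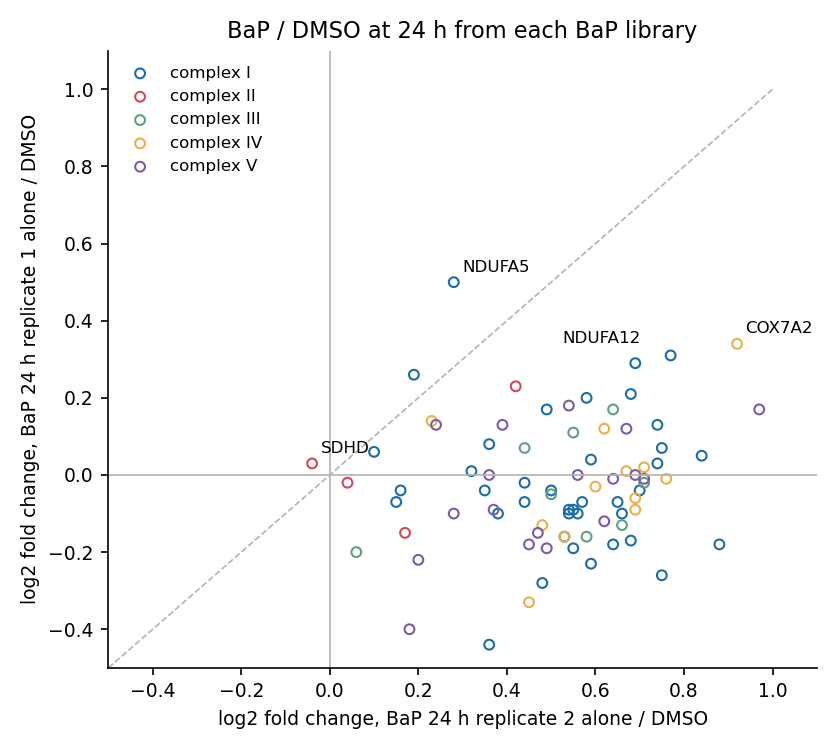
Log2 fold change against DMSO at 24 h from BaP 24 h replicate 2 alone (x axis, fit without replicate 1) and from replicate 1 alone (y axis, fit without replicate 2) for the 81 members, coloured by complex. Most points lie right of 0 on the x axis, with a median of 0.55, and around 0 on the y axis, with a median of -0.04.

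By complex, the 24 h medians were 0.33 for complex I, 0.03 for complex II, 0.32 for complex III, 0.40 for complex IV and 0.27 for complex V. The 7 core subunits of complex I, which carry the flavin and iron-sulfur centres, had a median of 0.35 and the 32 accessory subunits 0.33. With replicate 1 left out, 27 of 39 members were called higher in complex I, 1 of 4 in complex II, 7 of 8 in complex III, 10 of 12 in complex IV and 13 of 18 in complex V. With replicate 2 left out, the medians ran from -0.04 in complexes I and III to 0.00 in complex II, and those of the core and accessory subunits were -0.04 and -0.06.

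**Figure D5:**
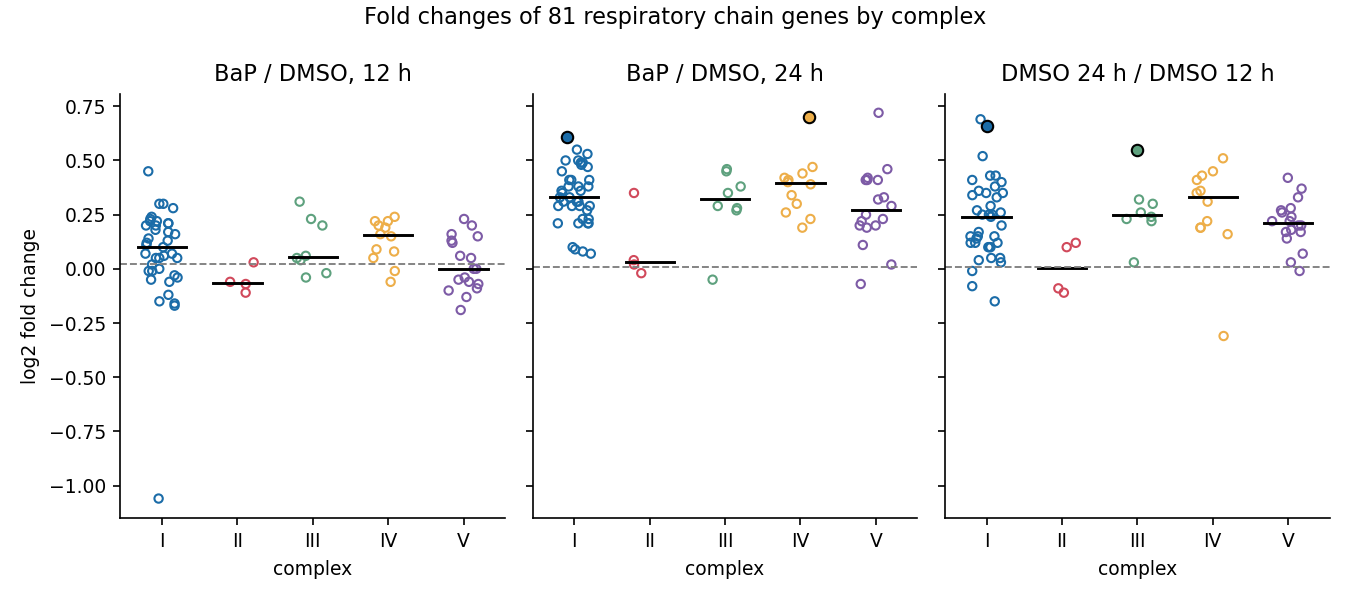
Log2 fold change (y axis) of the 81 members by complex (x axis) for BaP against DMSO at 12 h and 24 h and for DMSO 24 h against 12 h, with filled points for adjusted p under 0.05, black lines for the medians and a dashed line for the median of all genes. At 24 h the medians of complexes I, III, IV and V lie between 0.27 and 0.40 and that of complex II at 0.03.

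Several members came near the threshold at 24 h without passing. ATP5MK, a small membrane subunit of complex V, had 33.0 and 57.6 CPM with BaP, against 31.2 and 26.6 CPM with DMSO. Its BaP replicate 1 lay just above its higher DMSO library, and the log2 fold change was 0.72 ± 0.20 (adjusted p = 0.051). NDUFA8, an accessory subunit facing the intermembrane space, had 58.2 and 77.1 CPM with BaP, against 47.5 and 47.4 CPM with DMSO (0.55 ± 0.16, adjusted p = 0.071). SDHB had 72.4 and 83.2 CPM with BaP, against 60.8 and 63.0 CPM with DMSO (0.35 ± 0.12, adjusted p = 0.10). For NDUFA8 and SDHB each BaP library lay above both DMSO libraries. SDHB was the only complex II gene with an unadjusted p under 0.05, and its partners SDHA, SDHC and SDHD were at 0.04, 0.02 and -0.02. In complex III UQCRB was at 0.46 (adjusted p = 0.10) and UQCRQ, a small subunit, at 0.38 (0.12). COX5A was at 0.42 (0.11) and ATP5PF, coupling factor 6 of the peripheral stalk, at 0.41 (0.098). In the fit without BaP 24 h replicate 2, ATP5MK was at 0.17, NDUFA8 at 0.29, SDHB at 0.23, UQCRB at 0.17, UQCRQ at 0.11, COX5A at 0.12 and ATP5PF at 0.18, with adjusted p from 0.57 (SDHB) to 0.82 (UQCRQ). SDHA, SDHC and SDHD were then at -0.15, -0.02 and 0.03.

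The core subunits of complex I were spread over the same range at 24 h, and 0 of 7 passed. NDUFV1, which binds NADH and the flavin, had 96.8 and 141 CPM with BaP, against 91.4 and 96.2 CPM with DMSO (log2 fold change 0.38, adjusted p = 0.17). NDUFV2 and NDUFS8, both iron-sulfur subunits, were at 0.48 and 0.49, and NDUFS3 at 0.35. NDUFS7 and NDUFS1, also iron-sulfur subunits, were at 0.08 and 0.07. NDUFS1 had 66.0 and 77.3 CPM with BaP, against 65.7 and 73.7 CPM with DMSO, so its BaP and DMSO libraries interleaved. NDUFAB1, the mitochondrial acyl carrier protein, was at 0.50 (adjusted p = 0.096), with 111 and 169 CPM with BaP, against 95.9 and 108 CPM with DMSO. COX4I1, the most abundant member, had 292 and 499 CPM with BaP, against 284 and 305 CPM with DMSO (0.44, adjusted p = 0.36). Its BaP replicate 1 lay between the DMSO libraries and replicate 2 far above them. The core subunits named here, fitted without BaP 24 h replicate 2, ran from -0.07 (NDUFS1 and NDUFS3) to 0.21 (NDUFS8), NDUFAB1 was at 0.13 and COX4I1 at -0.01.

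Within complex V the values at 24 h are given by position. The head subunits ATP5F1A and ATP5F1B were at -0.07 and 0.11, and the central stalk subunits ATP5F1C, ATP5F1D and ATP5F1E at 0.19, 0.23 and 0.41. The small membrane subunits ATP5MF, ATP5MG and ATP5MJ were at 0.42, 0.33 and 0.41, and the inhibitor ATP5IF1 was at 0.20. None of these passed, with adjusted p from 0.18 to 0.88, and the difference between the groups of subunits was not tested. In complex III the core proteins UQCRC1 and UQCRC2 were at 0.27 and -0.05, and the Rieske iron-sulfur protein UQCRFS1 was at 0.29. The complex V genes named here, fitted without BaP 24 h replicate 2, ran from -0.40 (ATP5F1A) to 0.13 (ATP5IF1), and UQCRC1, UQCRC2 and UQCRFS1 were at -0.16, -0.20 and -0.05. UQCRFS1 and ATP5F1E have processed pseudogenes that took 136 and 126 counts, so a small part of their reads is uncertain.

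Between the vehicle groups, DMSO 24 h against DMSO 12 h, 2 members passed and both were higher at 24 h, where 3.28% of all genes passed and 2.27% passed in the higher direction. NDUFC1 had 40.2 and 50.1 CPM in DMSO 24 h, against 25.9 and 30.7 CPM in DMSO 12 h, with a log2 fold change of 0.66 ± 0.16 (SE, adjusted p = 0.031). UQCR10 had 200 and 178 CPM in DMSO 24 h, against 116 and 143 CPM in DMSO 12 h, with 0.55 ± 0.14 (adjusted p = 0.044). In both genes the 24 h libraries lay above the 12 h libraries. Leaving out any of the 4 DMSO libraries ended both calls. The median of the members was 0.22, beside 0.01 over all genes, with 74 of 81 above 0. Its spread (SD) over pairs of a 24 h and a 12 h library was 0.06. The median was -0.09 with 23 above 0 when libraries were scaled to the cytosolic ribosomal proteins. In a fit to the 4 DMSO libraries alone 8 members were called, all higher, where 511 of 14185 genes were called higher. Both 24 h libraries lay above both 12 h libraries for 56 members (69.1%), beside 25.3% of all genes tested. They lay below for 2 members (2.47%). The share of all genes that lay below is not given, so this count also has no background. Complex medians were 0.24, 0.01, 0.25, 0.33 and 0.21 for complexes I to V.

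The BaP comparison at 24 h and the vehicle comparison share the DMSO 24 h libraries, and both are given side by side for the 4 genes that passed in either. COX7A2 was at 0.70 for BaP at 24 h and at 0.43 for DMSO over time, and NDUFA12 was at 0.61 and 0.12. NDUFC1 was at 0.21 and 0.66, and UQCR10 at 0.28 and 0.55. The BaP values of NDUFC1 and UQCR10 at 24 h were 0.01 and 0.07 without BaP 24 h replicate 2. The summed CPM of the members was 8116 and 7460 in BaP 12 h, against 7736 and 7228 in DMSO 12 h. It was 8394 and 12418 in BaP 24 h, against 8463 and 8867 in DMSO 24 h. The sum therefore overlapped between BaP and DMSO at 24 h, and BaP replicate 1 was the lowest of these 4 libraries.

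The BaP effect at 24 h minus that at 12 h passed for 0 of 81 members, where 0.543% of all genes passed. The median difference was 0.24, with 3 members at an unadjusted p under 0.05, and DESeq2's Wald test called 0. Without BaP 24 h replicate 1, 10 members were called (all higher), where 1.62% of all genes were called higher. Without replicate 2 the median was -0.11 and 0 were called, where 0.476% of all genes were called higher.

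The promoters of the genes that passed a test, and of SDHD as the member that did not exceed DMSO in BaP 24 h replicate 2, are shown to let their sequence be read beside these values. They run from 250 bases before to 50 after a transcription start listed by RefSeq (GRCh38.p14), the start nearest to the most counted transcript, on the strand of the gene. Capitals mark matches, on either strand, to short core motifs of factors known for respiratory chain genes and for the AHR: GCGCNTGCG (NRF1), CCGGAAG (ETS factors such as GABPA), AAGATGGCG (YY1) and TNGCGTG (AHR). The windows are chr12:95003648-95003947 (minus strand) for NDUFA12, chr6:75243752-75244051 (minus) for COX7A2, chr4:139302502-139302801 (minus) for NDUFC1, chr22:29767119-29767418 (plus) for UQCR10 and chr11:112086623-112086922 (plus) for SDHD.
NDUFA12: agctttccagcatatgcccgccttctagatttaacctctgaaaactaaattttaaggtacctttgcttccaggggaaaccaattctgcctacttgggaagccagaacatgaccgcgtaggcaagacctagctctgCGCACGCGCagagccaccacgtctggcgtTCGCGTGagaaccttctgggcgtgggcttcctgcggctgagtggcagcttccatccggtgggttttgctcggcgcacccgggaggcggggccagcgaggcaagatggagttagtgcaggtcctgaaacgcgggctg
COX7A2: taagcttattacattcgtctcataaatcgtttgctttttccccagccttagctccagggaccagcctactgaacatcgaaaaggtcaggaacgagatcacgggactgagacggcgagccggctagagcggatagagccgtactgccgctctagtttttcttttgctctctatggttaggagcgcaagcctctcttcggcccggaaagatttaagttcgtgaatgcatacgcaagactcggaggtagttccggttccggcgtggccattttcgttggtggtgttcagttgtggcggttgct
NDUFC1: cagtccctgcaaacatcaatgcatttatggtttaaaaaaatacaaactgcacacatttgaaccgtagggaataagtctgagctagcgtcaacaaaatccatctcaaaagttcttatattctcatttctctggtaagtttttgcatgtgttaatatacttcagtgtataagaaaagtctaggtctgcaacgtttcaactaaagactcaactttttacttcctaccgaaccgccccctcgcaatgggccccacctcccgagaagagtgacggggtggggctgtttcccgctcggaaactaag
UQCR10: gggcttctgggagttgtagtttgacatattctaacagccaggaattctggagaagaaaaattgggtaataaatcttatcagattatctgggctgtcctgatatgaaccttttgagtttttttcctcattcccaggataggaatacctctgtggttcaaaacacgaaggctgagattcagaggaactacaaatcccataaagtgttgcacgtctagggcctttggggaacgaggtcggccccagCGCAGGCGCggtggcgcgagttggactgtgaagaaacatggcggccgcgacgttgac
SDHD: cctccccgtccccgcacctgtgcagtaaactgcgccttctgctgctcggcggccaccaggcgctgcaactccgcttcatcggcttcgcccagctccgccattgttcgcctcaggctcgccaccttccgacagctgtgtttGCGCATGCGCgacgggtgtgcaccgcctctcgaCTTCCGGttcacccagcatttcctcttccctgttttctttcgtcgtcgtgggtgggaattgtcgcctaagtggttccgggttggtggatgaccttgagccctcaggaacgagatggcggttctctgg

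NDUFA12 holds an NRF1 and an AHR match, UQCR10 an NRF1 match, and SDHD overlapping NRF1 matches and an ETS match. In the windows shown for COX7A2 and NDUFC1 none of the 4 motifs is spelled out. NDUFC1 has 4 listed starts, and it counts below as a member with the NRF1 motif through a start not shown. Promoters were listed for 72 of the 88 members. Counting every listed start, 25 of the 72 (34.7%) held the NRF1 motif, beside 12.5% of 15843 protein-coding genes. The ETS motif was in 21 (29.2%), beside 16.5%, and the YY1 motif in 9 (12.5%), beside 3.21%. The AHR motif was in 4 (5.56%), beside 8.26%, and these were COX7A2L, NDUFA12, NDUFB11 and NDUFS1. At 24 h the median log2 fold change was 0.29 over 24 tested members with the NRF1 motif and 0.35 over 45 without. For the ETS motif it was 0.35 over 21 members with it and 0.30 over 48 without. For the YY1 motif it was 0.35 over 9 members with it and 0.33 over 60 without. For the AHR motif it was 0.20 over 4 members with it and 0.33 over 65 without. The medians by motif include BaP 24 h replicate 2 and were not taken without it. Without that library the median of all tested members was -0.04. These matches are a description of letters and were not tested as binding sites.

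Transcript usage, the share of a gene's estimated counts given to each annotated transcript, was testable in 32 members. At 12 h 0 of 32 passed, where 0.284% of all genes tested did, with 1 at an unadjusted p under 0.05 (ATP5MC3, adjusted p = 0.78). At 24 h 0 passed, where 0.75% of all genes did, with 0 at an unadjusted p under 0.05, and the Simes test called 0 at both times. Single libraries moved some genes. NDUFA6, an accessory subunit of complex I, had 0.62% of its counts on transcript ENST00000331989 in BaP 12 h replicate 1, where the other 7 libraries had 88.0% to 95.7%. In that library ENST00000498737 took 90.9% instead, and it took at most 0.00407% elsewhere. The gene total of NDUFA6 was 52.0 and 43.4 CPM in BaP 12 h, against 41.0 and 36.2 CPM in DMSO 12 h.

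COX7A2L, known for joining complexes III and IV, had 65.4% and 87.1% of its counts on ENST00000234301 in BaP 24 h, against 73.6% and 71.2% in DMSO 24 h. ATP5F1E had 67.8% and 82.3% on ENST00000243997 in BaP 24 h, against 69.7% and 67.7% in DMSO 24 h. In both genes BaP 24 h replicate 2 was the high library and replicate 1 was below at least 1 DMSO library. Without BaP 24 h replicate 1, 4 of 32 members were called (ATP5F1E, ATP5PB, COX7A2L and NDUFA5), where 5.83% of all genes were. Without replicate 2 there were 2 (ATP5PB and NDUFA5), where 7.53% of all genes were called, so this count is no higher than the background. Without BaP 12 h replicate 2 NDUFA6 was called at 12 h, where 0.543% of all genes were.

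Among the assembly factors, which build the complexes and stay out of them, 51 of 52 genes were tested. At 12 h 1 was lower with BaP and 0 higher, beside 8.25% of all genes tested that passed in either direction. NUBPL, which delivers iron-sulfur clusters to complex I, had 11.5 and 14.2 CPM with BaP, against 22.3 and 30.7 CPM with DMSO (log2 fold change -1.03 ± 0.18, adjusted p = 0.0011). At 24 h 1 was higher and 0 lower, beside 5.3% of all genes tested that passed, 3.11% in the higher direction. NDUFAF8, a complex I assembly factor, had 40.9 and 70.7 CPM with BaP, against 33.0 and 26.1 CPM with DMSO (0.97 ± 0.22, adjusted p = 0.025, and 0.44 with adjusted p = 0.37 without BaP 24 h replicate 2). The medians of this list were 0.08 at 12 h and 0.25 at 24 h, and without BaP 24 h replicate 2 the 24 h median was -0.02, with 24 of 51 above 0.

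Of 16 tested regulators of mitochondrial biogenesis and mitochondrial DNA, 1 passed at each time with BaP, and both were higher. The share of all genes tested that passed was 8.25% at 12 h and 5.3% at 24 h. ESRRA, a nuclear receptor that acts on respiratory chain genes, had 23.5 and 21.9 CPM with BaP at 12 h, against 14.2 and 15.3 CPM with DMSO (0.62 ± 0.16, adjusted p = 0.027). SSBP1, which binds single-stranded mitochondrial DNA, had 46.1 and 55.1 CPM with BaP at 24 h, against 35.8 and 31.9 CPM with DMSO (0.60 ± 0.14, adjusted p = 0.023, and 0.43 with adjusted p = 0.32 without BaP 24 h replicate 2). PPARGC1A, the coactivator PGC-1alpha, passed between the vehicle groups, with 30.7 and 41.4 CPM in DMSO 24 h, against 15.6 and 15.3 CPM in DMSO 12 h (1.20 ± 0.17, adjusted p = 0.00097). The list medians were 0.15 at 12 h and -0.06 at 24 h, and the 24 h median was also -0.06 without BaP 24 h replicate 2.

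The 13 subunits encoded in mitochondrial DNA had medians of -0.22 at 12 h and -0.11 at 24 h. The 24 h median was 0.16 without BaP 24 h replicate 1 and -0.41 without replicate 2. The share of all genes tested that passed was 8.25% at 12 h and 5.3% at 24 h. MT-CYB, the cytochrome b of complex III, was the 1 gene of this list that passed at each time, and it was lower with BaP. It had 3661 and 3516 CPM in BaP 12 h, against 6929 and 6882 CPM in DMSO 12 h (-0.94 ± 0.16, adjusted p = 0.0014), and 3369 and 3989 CPM in BaP 24 h, against 6088 and 6090 CPM in DMSO 24 h (-0.73 ± 0.16, adjusted p = 0.017). At 24 h it also passed without BaP 24 h replicate 1 (-0.61, adjusted p = 0.0094) and without replicate 2 (-0.86, adjusted p = 0.0021). Its nuclear-encoded partners in complex III were called at neither time.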

How the data were processed

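Poly-A RNA was measured in 8 libraries of 4 groups. Per the submitters' processing notes, the aligner was Bowtie 0.12.7, RSEM 1.1.7 estimated the counts, and edgeR is named without a version. Per the file names the annotation was Ensembl release 58, while the genome build was not given in the sources used. The estimated counts per gene and transcript are deposited as RSEM made them, and the deposited fractions are the authors' length-corrected estimates, which sum to 1 in each library. The deposited tables also hold posterior mean counts, used for an alternative, and fraction bounds, which were not used.

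IDs were named by Ensembl ID (42168 of 49733 IDs), and 1 member, NDUFA7, by its transcript. Counts rounded to whole numbers were fitted in R 4.3.3 with edgeR 4.0.16 on all 8 libraries (filterByExpr with a minimum count of 10 and a minimum total of 15, TMM scaling, robust quasi-likelihood F-test, two-sided, Benjamini-Hochberg over all 14746 genes, threshold 0.05). CPM use the scaled totals. An SE is that of the log2 fold change. Deviations used log2(CPM + 0.5). Usage was tested by edgeR's diffSpliceDGE (F-test per gene), keeping transcripts with at least 10% of their gene's counts. The steps were tested on simulated data. Alternatives were DESeq2 1.42.0 (size factors or Wald test), edgeR's exact test, no low-count filter, a replicate block, a comparison's own libraries only, each library left out, thinning to 2592234 counts, mitochondrially encoded genes left out, a GC and mRNA length smooth (mgcv 1.9.3, known for 93.3% of genes) and posterior mean counts, and for usage no minimum share and the Simes test. Limits from counts cover counting error only. The members and lists were chosen with earlier results of these data known, and scaling to the members or to the ribosomal proteins was chosen after seeing the data. Named genes are members that passed, the 2 with the smallest p and the highest and lowest levels in each complex, the tissue pairs, and up to 4 passing genes of each other list. ATP5F1A to ATP5F1D, ATP5MF, ATP5MG, ATP5MJ, ATP5IF1, UQCRC1, UQCRC2, UQCRFS1, COX7A2L, NDUFS1, NDUFS3, NDUFS7, NDUFS8, NDUFV1, NDUFV2 and NDUFAB1 were named for their role, after their values were seen. The values of 1 member are not reported here.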

Additional observations from a re-analysis of the deposited data

How the results depend on the processing

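The 24 h count of 2 members called became 13 with no filter on low counts, where 679 of 26533 genes were called higher. It became 6 with the GC and length correction with or without the replicate block, where 743 and 742 of 13753 genes were. EdgeR's exact test gave 4 and DESeq2's Wald test 1, where 562 and 304 of 14746 genes were. Thinned libraries gave 1, where 227 of 11683 genes were. A fit to the comparison's own libraries gave 0, where 235 of 13519 genes were. Scaling to the members or to the ribosomal proteins also gave 0. All members called were higher. The 12 h count of 0 became 1, higher with BaP, with either GC and length correction. Of 13753 genes, 811 and 833 were called higher there, without and with the block. It was also 1 in a fit to its own libraries, where 649 of 14316 genes were called higher. Between DMSO times the count of 2 became 4 with no filter, where 464 of 26533 genes were called higher. It was also 4 with either GC and length correction, where 532 and 556 of 13753 genes were, without and with the block. A fit to its own libraries gave 8, where 511 of 14185 genes were. Thinned libraries gave 0, where 192 of 11683 genes were, and either scaling gave 0. The median of 0.22 became 0.15 with either GC and length correction, 0.01 scaled to the members and -0.09 scaled to the ribosomal proteins. Scaling to the members removes any shift they share by construction, so its counts and medians cannot show whether the members moved together. The causes of the other changes were not tested. With the replicate block the members called were 1 at 24 h (COX7A2) and 1 between DMSO times (NDUFC1). The labels do not say that a number marks a shared experiment. Across 7299 genes, same-numbered differences between replicates correlated at 0.424 between BaP 12 h and DMSO 12 h. The values were 0.064 between BaP 24 h and DMSO 24 h and -0.239 between BaP 12 h and BaP 24 h. The numbers were therefore not taken to pair the samples. The block fits a single effect shared by all groups, so pairing within 12 h alone was not tested.

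Leaving out 1 library at a time gave 0 to 1 members at 12 h, 0 to 58 at 24 h, 0 to 10 for the difference and 0 to 13 between DMSO times, medians of -0.04 to 0.55 at 24 h and 0.13 to 0.25 between DMSO times, and usage calls of 0 to 1 at 12 h and 0 to 4 at 24 h. Over all genes the calls at 12 h were 1216, and 623 with thinned libraries, 800 with the Wald test and 424 to 1667 without 1 library. At 24 h they were 782, and 1238 with no filter, 375 thinned, 1265 and 1282 with the GC and length correction without and with the block, 379 in its own libraries and 169 to 1956 without 1 library. For the difference they were 80, and 240, 34, 197, 237 and 28 to 348 in the same order, with no fit to its own libraries. Between DMSO times they were 483, and 805, 252, 1014, 1070, 853 and 87 to 998, and 750 with the exact test.

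Of 661 values of named genes under alternatives other than a left-out library, 560 kept direction and side of the threshold, 75 lost the threshold, 16 passed it and 10 changed sign. With a library left out these were 328, 65, 12 and 3 of 408. SDHA at 12 h was 0.00 thinned and -0.18 to 0.04 without 1 library. SDHC at 12 h was 0.07 with either GC and length correction and -0.28 to 0.03 without 1 library. At 24 h SDHA was -0.15 to 0.17 without 1 library, -0.22 scaled to the members and -0.13 scaled to the ribosomal proteins, and NDUFC1 was -0.09 scaled to the members and -0.00 with the GC and length correction and block. NDUFA12 between DMSO times was -0.09, -0.19 and -0.01 under these 3 settings. Depth limits the rarest members, since 3 counts are 1.13 CPM in BaP 24 h replicate 1.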

Other observations

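The 74 mitochondrial ribosomal protein genes translate the subunits encoded in mitochondrial DNA. With BaP, 1 was higher and 0 lower at 12 h, and 6 were higher and 0 lower at 24 h. Of all genes tested, 8.25% passed at 12 h and 5.3% at 24 h, 3.11% in the higher direction at 24 h. MRPL32 had 32.7 and 32.8 CPM in BaP 12 h, against 20.7 and 21.4 CPM in DMSO 12 h (log2 fold change 0.64 ± 0.14, adjusted p = 0.0082 by edgeR's quasi-likelihood test). It had 28.9 and 30.3 CPM in BaP 24 h, against 21.6 and 17.1 CPM in DMSO 24 h (0.60 ± 0.15, adjusted p = 0.031). Its 24 h value was 0.55 without BaP 24 h replicate 2 (adjusted p = 0.26). MRPS25 had 48.0 and 56.8 CPM in BaP 24 h, against 35.4 and 37.3 CPM in DMSO 24 h (0.56 ± 0.13, adjusted p = 0.020). MRPL18 was at 0.53 (adjusted p = 0.027) and MRPL33 at 0.63 (0.028), and MRPS23 and MRPS11 also passed. Without BaP 24 h replicate 2, 0 of the 74 passed at 24 h, with MRPS25 at 0.40 (adjusted p = 0.31), MRPL18 at 0.41 (0.28), MRPL33 at 0.34 (0.49), MRPS23 at 0.22 (0.62) and MRPS11 at 0.39 (0.47). The median of the list was 0.08 at 12 h and 0.29 at 24 h, and without BaP 24 h replicate 2 it was 0.06.

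Of 16 genes for electron carriers and coenzyme Q synthesis, 1 was lower with BaP at 12 h and 0 passed at 24 h. The share of all genes tested that passed was 8.25% at 12 h and 5.3% at 24 h. PDSS2, which makes the side chain of coenzyme Q, had 5.93 and 7.85 CPM in BaP 12 h, against 12.8 and 12.9 CPM in DMSO 12 h (-0.88 ± 0.18, adjusted p = 0.0047). COQ5, a methyltransferase of the same route, passed between the vehicle groups, with 19.5 and 20.4 CPM in DMSO 24 h, against 13.6 and 11.2 CPM in DMSO 12 h (0.69 ± 0.18, adjusted p = 0.044). Of 16 TCA cycle genes 0 passed in any comparison, with 2 and 3 at an unadjusted p under 0.05 at 12 h and 24 h and medians of -0.03 and 0.17, and without BaP 24 h replicate 2 the 24 h median was -0.02. Of 81 cytosolic ribosomal protein genes 1 passed at 24 h, beside 5.3% of all genes tested. It was RPS27L, a p53 target of ribosomal name, with 101 and 129 CPM in BaP 24 h, against 73.3 and 63.4 CPM in DMSO 24 h (0.77 ± 0.16, adjusted p = 0.010). Without BaP 24 h replicate 2 it did not pass (0.55, adjusted p = 0.13).

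Among IDs with a member's symbol that were left out, 29 of 124 pseudogenes had any count, and together they held 357 counts, which is 0.0489% of the 729988 counts of the members over all libraries. A further 4 IDs repeated a member's symbol (151 counts) and 1 read-through ID held 4.86 counts.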
